A study of Nannochloropsis oceanica strain IMET1 with 15 samples.

Results

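Line M3 was compared directly with line M2, without use of the wild type (WT). Both are Cas9 knockout clones of *Nannochloropsis oceanica* strain IMET1, a single-celled marine alga that stores oil. M2 (Mutant2 in the labels) is a NO08G00280 knockout mutant, and M3 (Mutant3) is a NO06G02500 knockout mutant. Cultures of both lines were sampled on day 7 under high light, with 3 libraries labelled as replicates for each line, which makes 6 of the 15 libraries of the series. Every gene of the expression matrix was a candidate, 10493 in all: 10333 nuclear genes on 30 chromosomes, 125 of the chloroplast and 35 of the mitochondrion. Each line is 1 clone, so the knocked-out gene and any other property of a clone cannot be told apart in this comparison. A second pair of clones, M4 (NO06G02500 knockout) and M1 (NO08G00280 knockout), has the same knocked-out genes in other clones and libraries, 3 a line, and serves beside it.

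N6-methyladenine (6mA) is a methyl mark on adenine in DNA. In some green algae it lies near the starts of active genes, while in *N. oceanica* the study found its density lowest there. A methyltransferase places such a mark and a demethylase takes it off. The study named NO08G00280 as a putative 6mA methyltransferase, a homolog of N6AMT1, and NO06G02500 as a candidate 6mA demethylase of the AlkB family, so the comparison sets the loss of a candidate writer against the loss of a candidate eraser. It asks which transcripts differ between the 2 mutants.

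Transcripts of the knocked-out genes do not tell the lines apart. NO08G00280 (chromosome 8, 111285 to 112766) was at 7.42, 7.64 and 6.74 TMM-normalized TPM in the M2 libraries and at 11.2, 12.7 and 7.65 in the M3 libraries. TMM-normalized TPM is a share of the transcripts of a library per gene length, rescaled by 1 factor a library, so a change in total RNA per cell is not seen in it. NO06G02500 (chromosome 6, 702217 to 703737) was at 70.8, 61.9 and 66.6 in M2 and at 76.7, 69.8 and 69.0 in M3. The log2 differences, M3 minus M2, were 0.45 for NO08G00280 (SE 0.21, adjusted p = 0.199) and 0.11 for NO06G02500 (SE 0.08, adjusted p = 0.385, limma). Each gene was thus still transcribed in the line that carries its knockout, and these values check no genotype.

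The libraries were alike in depth and separated by line. Relative depth, taken as coverage over FPKM, was 4.91 to 5.34 in M2 and 5.18 to 5.51 in M3. Correlations of log2 values over the tested genes were 0.906 to 0.919 within M2, 0.894 to 0.901 within M3 and 0.873 to 0.893 between the lines. The first principal component held 30.4% of the variance and had the M2 libraries on one side and the M3 libraries on the other. The second held 20.04% and separated M3 replicate 1 from M3 replicate 3. The median SD of log2 values was 0.105 in M2 and 0.163 in M3. The study's text calls the 3 libraries of a line biological replicates, and p-values measure the spread between them within 1 clone a line.

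Of 9405 genes tested, 1409 differed between M3 and M2 at an adjusted p under 0.05 (limma on log2(value + 1), Benjamini-Hochberg adjustment), or 15.0%. In M3, 764 were higher (8.12%) and 645 lower (6.86%), and the median log2 difference over all tested genes was 0.01. The direction split depended on the scaling of the libraries. With the TPM of the tables of single libraries, here called StringTie TPM after their format, 594 were higher and 946 lower. StringTie TPM has no TMM factors and moves the median difference of all genes to -0.07. With quantile normalization 683 were higher and 898 lower, and without organelle genes 591 and 948. Removal of organelle genes also rescaled each library to the same total, which takes out the TMM factors. This setting is thus close to StringTie TPM and does not show an effect of organelle genes. Of the 1409, 247 differed by more than 2-fold (2.63% of the tested genes), 168 higher in M3 (1.79%) and 79 lower (0.840%), and by more than 4-fold 31 were higher (0.330%) and 14 lower (0.149%). The 3 libraries of one line all lay above the 3 of the other in 40.1% of the tested genes, which is the background for any lack of overlap given here. The number of genes passing was 337 without M2 replicate 2, 467 without M3 replicate 2, 505 without M2 replicate 1, 581 without M2 replicate 3, 882 without M3 replicate 3 and 2049 without M3 replicate 1. M3 replicates 1 and 3 lay at opposite ends of the second component.

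**Figure D1:**
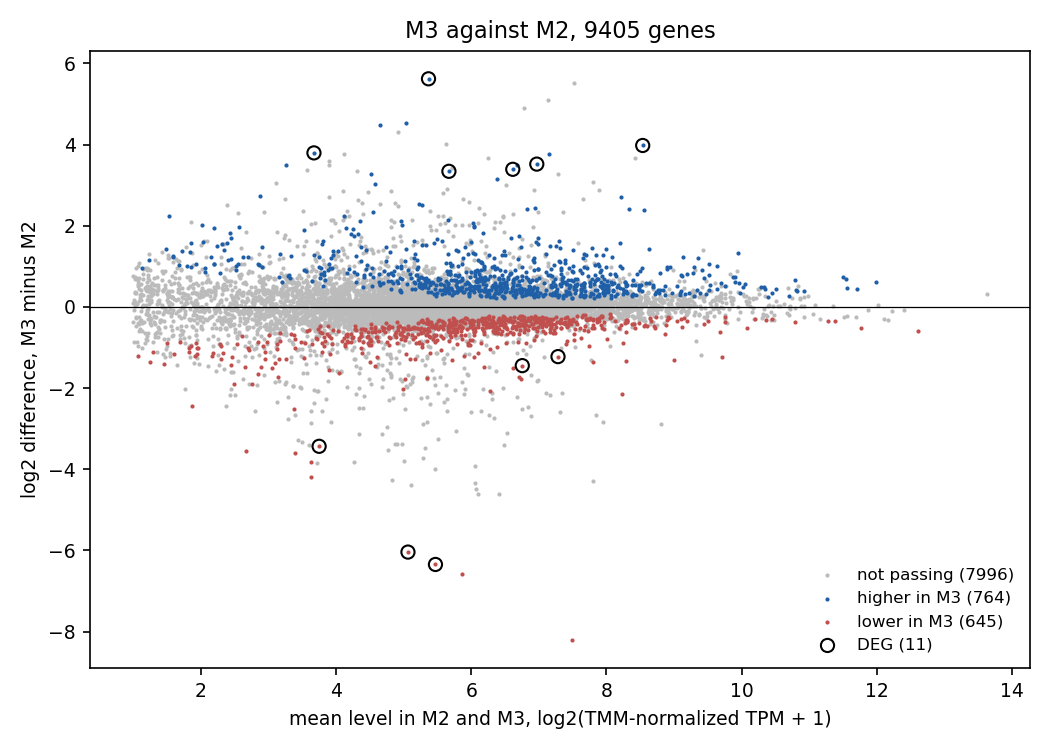
Log2 difference, M3 minus M2, against the mean level of both lines, log2(TMM-normalized TPM + 1), for the 9405 tested genes. Each point is a gene, blue if higher in M3 (764), red if lower (645) and grey if not passing limma's test, and circles mark the 11 genes past the stricter threshold, which lie between -6.35 and 5.62.

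The study's stricter threshold for differentially expressed genes (DEGs), which asks for a change over 2-fold with an adjusted p no larger than 0.001, left 11 genes (0.117%), 6 higher in M3 (0.0638%) and 5 lower (0.0532%). Only 2 of them have a description in the study's gene list. NO12G00390, described as H(+)-ATPase 2, a pump that drives protons out across the plasma membrane in *Arabidopsis*, was higher in M3, and NO22G00640, described as the bifunctional lysine-ketoglutarate reductase/saccharopine dehydrogenase that opens lysine breakdown, was lower. The count of DEGs depended strongly on which libraries were used and on the model. It was 0 without M2 replicate 1, 1 without M2 replicate 2, 3 without M3 replicate 2 and 7 without any 1 of the other 3 libraries. In a fit of all 15 libraries, which estimates the spread from more samples, it was 127. The cause of these changes was not tested.

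NO12G00390 (chromosome 12, 141260 to 146773) was at 38.4, 39.99 and 51.9 TMM-normalized TPM in M2 and at 779, 679.9 and 631 in M3, 16.04-fold higher by the means. Every M3 library was far above every M2 library. The log2 difference was 3.98 (SE 0.14, adjusted p = 3.07e-04, limma). The gene overlaps another, and since the libraries carry no strand information, reads in the overlap cannot be assigned. The M1 libraries, with the same knocked-out gene as M2, were at 671, 401 and 243, all above the M2 libraries, and replicate 1 alone within the range of M3.

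NO22G00640 (chromosome 22, 216289 to 223053) was at 148, 155 and 169 in M2 and at 56.5, 57.2 and 57.1 in M3. The M3 values lay within 1 unit of each other and were 2.76-fold below the M2 mean, with a log2 difference of -1.45 (SE 0.07, adjusted p = 9.14e-04, limma). Its neighbour NO22G00660, a gene described as a protein kinase superfamily protein on the other strand, overlaps it by 428 bases and was lower as well, at 93.5 ± 2.85 (SD, n = 3) in M2 and 42.0 ± 1.18 in M3. Without strand the 2 calls are not independent.

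The other DEGs have no description. NO04G01800 (chromosome 4, 527441 to 529264) was at 17.2, 17.8 and 22.5 in M2 and 214, 235 and 239 in M3, a log2 difference of 3.52 (SE 0.12, adjusted p = 3.07e-04, limma). NO16G00950 (chromosome 16, 306611 to 308811) was at 15.8, 13.7 and 18.7 in M2 and 148, 198 and 188 in M3, a log2 difference of 3.39 (SE 0.16). NO16G02290 (chromosome 16, 664974 to 666516) was at 8.06, 7.41 and 8.92 in M2 and 101.4, 84.0 and 89.7 in M3, a log2 difference of 3.34 (SE 0.12). The means of these 3 were 11.1-fold to 11.96-fold higher in M3, with no overlap of the lines. In M1, which carries the same knocked-out gene as M2, their means were 239, 143 and 70.6. In each of the 3 every M1 library lay above every M2 library. On the lower side, NO13G03170 (chromosome 13, 921053 to 922948) was at 24.9, 23.5 and 22.6 in M2 and 1.49, 1.40 and 0.982 in M3, 18.3-fold lower in M3 by the means. In M1 this gene was at 3.71, 3.88 and 4.32, all below the M2 libraries.

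For the remaining 5 DEGs, the libraries of M1 or M4 differed among themselves by nearly as much as M3 did from M2. NO14G01700 was at 0.571, 0.487 and 0.899 in M2 and 79.0, 80.7 and 80.2 in M3, but in M1 it was at 74.0, 77.2 and 1.37 and in M4 at 2.51, 1.71 and 96.7. NO06G02680 was at 90.6, 83.3 and 86.0 in M2 and below 0.14 in each M3 library, and in M1 at 0.0370, 82.4 and 0.0280. NO16G03130 was at 0.486, 0.988 and 0.696 in M2 and 23.9, 21.2 and 23.4 in M3, and in M1 at 31.4, 1.15 and 19.1. These genes take a high or a low value within replicates of 1 clone. NO16G00720 was at 64.9, 60.1 and 69.8 in M2 and listed at 0 in all M3 libraries, and in M1 at 51.5, 0 and 0. NO09G03470 was at 217, 210.4 and 224 in M2 and 96.1, 92.9 and 88.3 in M3, and in M1 at 215, 196 and 90.9. Over all tested genes, 5.16% spanned more than 3 log2 units within the M1 or the M4 libraries. For the other 6 DEGs that span was 0.20 to 1.46.

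Besides NO16G00720, the genes listed at 0 in all 3 libraries of M3 and at 5 or more in all of M2 were NO01G03380 (8.67, 12.4 and 11.2 in M2), NO09G03960 (53.9, 221 and 69.3) and NO19G00910 (434, 109 and 534). No gene was listed at 0 in M2 and at 5 or more in all of M3. Each of the 4 was also listed at 0 in 1 or more libraries of M1 and well above 0 in another library of M1: 51.5 for NO16G00720, 12.3 for NO01G03380, 89.4 for NO09G03960 and 145 for NO19G00910. Of the tested genes, 212 were listed at 0 in a library and at 20 or more in another library of the same line, M2 or M3. In M4, NO16G00720 and NO09G03960 were listed at 0 in all libraries, NO01G03380 at 5.66, 0 and 4.78, and NO19G00910 at 628, 540 and 617. Whether a listed 0 is an absent transcript or a failed estimate was not tested, and no fold is given for these 4 genes.

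**Figure D2:**
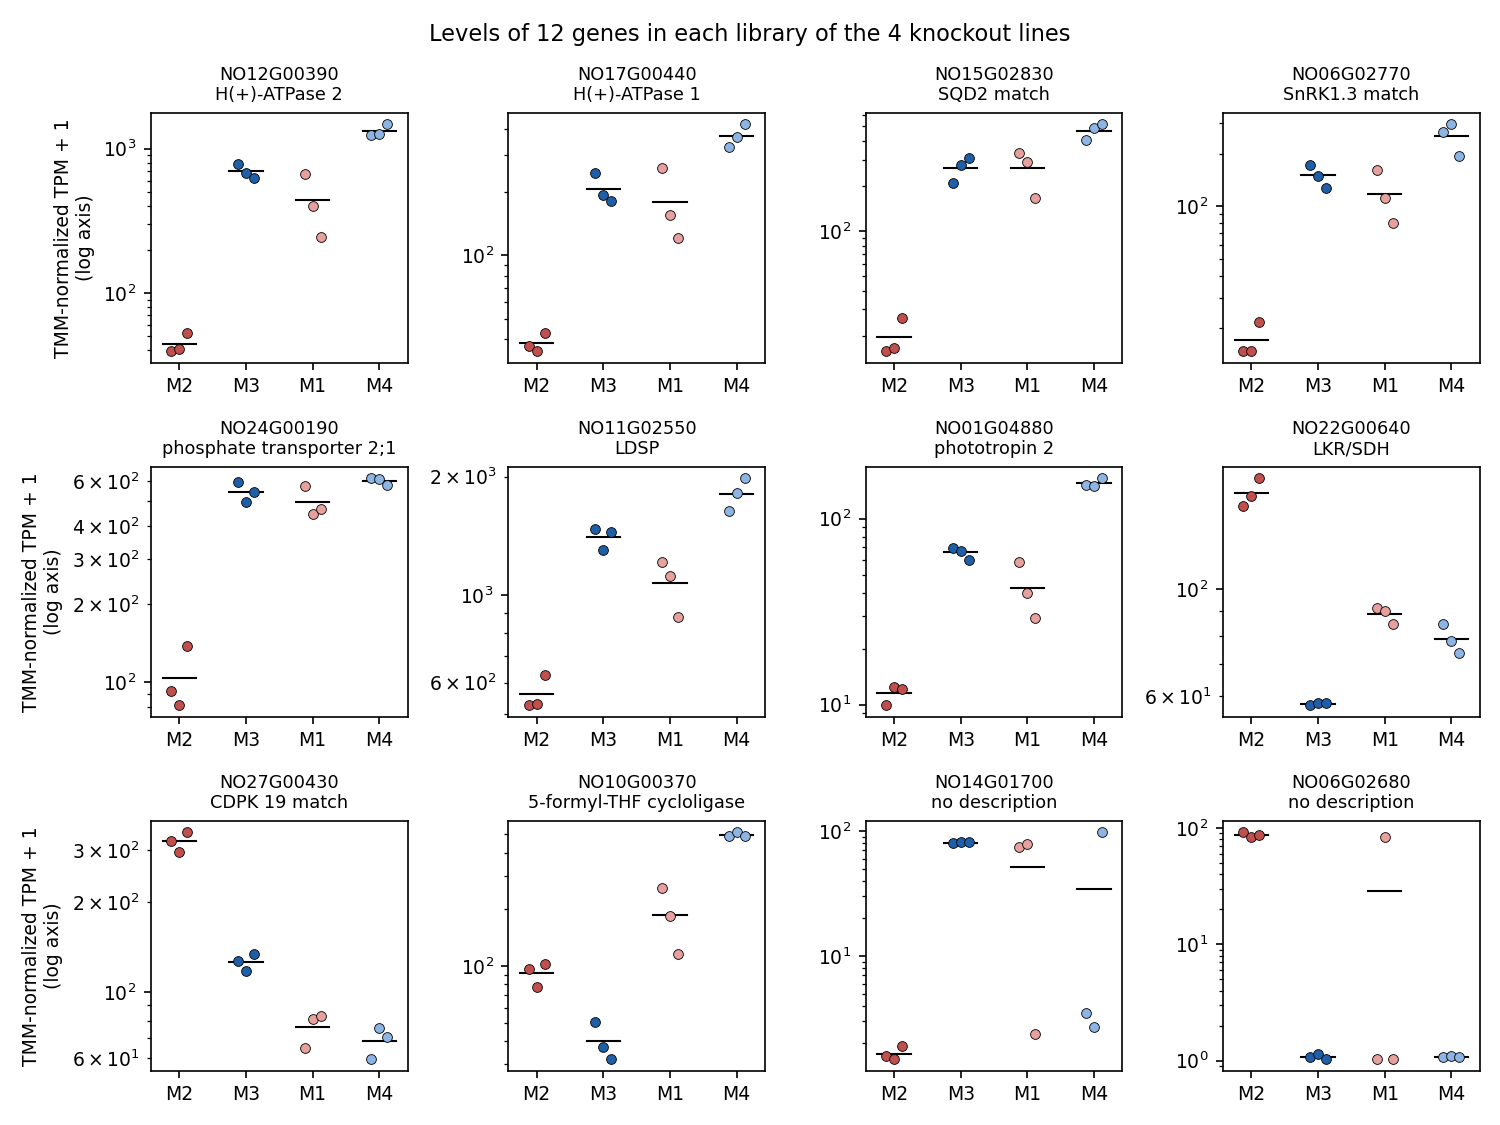
TMM-normalized TPM plus 1, on a log axis, of 12 genes in each library of M2, M3, M1 and M4 (points, 3 a line; bars, the mean of value + 1). The M2 libraries lie below all others of the panel in NO12G00390, NO17G00440, NO15G02830, NO06G02770, NO24G00190, NO11G02550, NO01G04880 and NO14G01700. In NO10G00370 M3 lies lowest and M4 highest, and in NO14G01700 and NO06G02680 libraries of 1 line split between a high and a low level.

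Lists of genes by function were picked from the study's list of genes changed in these libraries (98 of 102 members) and from its text, so their counts are not independent evidence of a change. Of 625 tested genes of that source list, 350 passed here (56.0%), 230 higher in M3 (36.8%) and 120 lower (19.2%), against 15.0% of all tested genes. Of 98 tested list members, 42 were higher in M3 and 14 lower, or 57.1%, close to the share of the source list. The median log2 difference was 0.61 over the source list and 0.01 over all genes, against which the medians of the lists are read. The descriptions are names of matches, mostly *Arabidopsis* genes, and the roles given are those of the named proteins there.

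Proton pumps were all higher in M3. All 5 tested members passed (5 higher, none lower), with a median log2 difference of 0.99. Besides NO12G00390, the other plasma membrane pump, NO17G00440 (H(+)-ATPase 1), was at 36.2, 34.0 and 42.0 in M2 and 245, 193 and 181 in M3. That is a log2 difference of 2.43 (SE 0.14, adjusted p = 0.00151, limma), 5.52-fold by the means. NO12G00380, a second gene described as H(+)-ATPase 2 that ends 528 bases before NO12G00390 on the same strand, differed less, from 168 ± 19.2 to 338 ± 58.8 (SD, n = 3). Subunits of the vacuolar pump, which acidifies the vacuole, were higher by less: NO04G03350 (subunit G2) was at 191 ± 2.78 and 338 ± 12.03, and NO15G01190 (subunit D) at 220.0 ± 37.9 and 321 ± 7.88. The call of NO12G00380 ended without M2 replicate 1 or 2 or M3 replicate 2 (adjusted p = 0.0532 to 0.0595), and that of NO15G01190 without any library but M2 replicate 3 (0.0575 to 0.115) and without the variance trend (0.0503).

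Genes of sulfolipid synthesis were higher in M3. SQD2 of *Arabidopsis* makes sulfoquinovosyldiacylglycerol, the sulfur-containing lipid of chloroplast membranes, and all 3 genes described by its name passed, with a median log2 difference of 1.44. NO15G02830 (chromosome 15, 773479 to 775661) was at 14.8, 15.6 and 25.3 in M2 and 207, 275 and 309 in M3, a 14.2-fold difference of the means and a log2 difference of 3.78 (SE 0.25, adjusted p = 0.00174, limma). The groups did not overlap, and the lowest M3 value was far above the highest M2 value. NO07G01720 was at 186, 204 and 247 in M2 and 527, 589.7 and 606 in M3 (2.70-fold), and NO05G03760 at 82.2, 79.2 and 85.3 and 120.5, 139 and 136 (1.60-fold). In M1 the values of NO15G02830 were 334, 289.8 and 165, those of NO07G01720 725, 595 and 419, and those of NO05G03760 197, 168 and 153. In all 3 genes every M1 library lay above every M2 library. The M1 means of 263, 580 and 173 lay near or above the M3 means of 264, 574 and 132. None of the 3 genes passed between M4 and M1.

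Of 3 tested genes of sulfate or sulfite transport, 2 were higher in M3, with a median of 0.89. NO11G01800 (sulfate transporter 3;4) was at 118, 118 and 142 in M2 and 255, 223 and 222 in M3, a log2 difference of 0.89 (SE 0.10, adjusted p = 0.00727, limma). NO10G00770 (sulfate transporter 4.1) was at 108 ± 16.97 and 211 ± 43.1, and its call ended without M2 replicate 1 or 2 or M3 replicate 2 or 3 (adjusted p = 0.0694 to 0.1007). The sulfite exporter match NO09G03220 had low levels, 3.71 ± 0.852 in M2 and 1.88 ± 0.206 in M3, and did not pass (adjusted p = 0.0892).

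Nitrate assimilation genes had positive differences in all 4 tested members, and 2 passed, both higher in M3. The median was 0.78. NO24G02300, described as a molybdenum cofactor enzyme of nitrate reductase, was at 201, 143 and 155 in M2 and 312, 293 and 251 in M3, a log2 difference of 0.78 (SE 0.15, adjusted p = 0.0258, limma). NO26G00710, nitrite reductase, which makes ammonium from nitrite in the plastid, was at 36.5, 43.5 and 35.5 in M2 and 82.5, 66.0 and 53.9 in M3 (adjusted p = 0.0381). The high affinity nitrate transporter NO14G02450 was at 27.8, 60.6 and 79.1 in M2 and 132, 131 and 127 in M3, without overlap, but M2 replicate 1 lay far below the other M2 libraries and the gene did not pass (adjusted p = 0.0677; 0.0352 without that library). The nitrate reductase gene NO14G02460 (29.2 ± 5.67 and 46.2 ± 15.0) did not pass either (adjusted p = 0.163). Between M4 and M1 this gene did pass, at 27.5 ± 1.64 in M1 and 59.9 ± 15.5 in M4 (log2 difference 1.07, adjusted p = 0.0382, limma). None of the 4 genes differed between the 2 pairs of lines in their difference. The call of NO24G02300 ended without M2 replicate 2 or 3 or M3 replicate 2 (0.0859 to 0.0887) and with quantile normalization (0.0531). That of NO26G00710 ended without any M2 library or M3 replicate 2 (0.0867 to 0.117) and in the fit of 12 libraries (0.0545). It also ended with StringTie TPM (0.0637) and, at nearly the same scaling, without organelle genes (0.0636).

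Of 4 phosphate genes, 2 were higher in M3 and 1 lower. NO24G00190 (phosphate transporter 2;1, a plastid transporter in *Arabidopsis*) was at 91.8, 80.3 and 138 in M2 and 591, 495 and 543 in M3, with a log2 difference of 2.42 (SE 0.21, adjusted p = 0.00320, limma). NO06G00660, a match of SPX domain gene 1, whose protein senses phosphate status, was at 94.1, 105 and 109 in M2 and 191, 244 and 253 in M3. NO04G04920, described as phosphate deficiency response 2, was lower, at 15.6 ± 1.02 in M2 and 8.67 ± 0.623 in M3. Its call ended without any M2 library or M3 replicate 2 (adjusted p = 0.0524 to 0.0795). The other phosphate transporter, NO03G01310, was at 202 ± 8.38 and 229 ± 8.42 and did not pass (adjusted p = 0.0808).

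Other ion transport genes were mostly higher in M3 (7 higher and 1 lower of 10, median 0.71). A pair of neighbours on chromosome 10 on the same strand, 74 bases apart, both described as the STELAR K+ outward rectifier, a potassium channel, was higher together: NO10G02520 was at 30.6 ± 1.74 in M2 and 111 ± 16.9 in M3, and NO10G02530 at 30.3 ± 1.91 and 95.6 ± 26.8. The calcium pump match NO16G02820, of the endoplasmic reticulum type, was at 70.9, 68.0 and 90.4 in M2 and 281, 216 and 215 in M3. The magnesium transporter match NO21G01570 was at 7.34, 6.00 and 7.73 in M2 and 29.4, 29.1 and 28.8 in M3, a log2 difference of 1.91 (SE 0.13, adjusted p = 0.00199, limma). The aquaporin match NO20G01770 was at 6.26 ± 0.299 and 11.3 ± 1.56, and its call ended without any library but M3 replicate 1 (adjusted p = 0.0553 to 0.102). The other aquaporin match, NO13G03110 (plasma membrane intrinsic protein 1B), was the 1 lower member, at 2.35 ± 0.685 in M2 and 0.539 ± 0.282 in M3 (adjusted p = 0.0489), and its call ended without any 1 library (0.0769 to 0.156) and with a pseudocount of 0.1 or 5 (0.0610 and 0.0554).

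**Figure D3:**
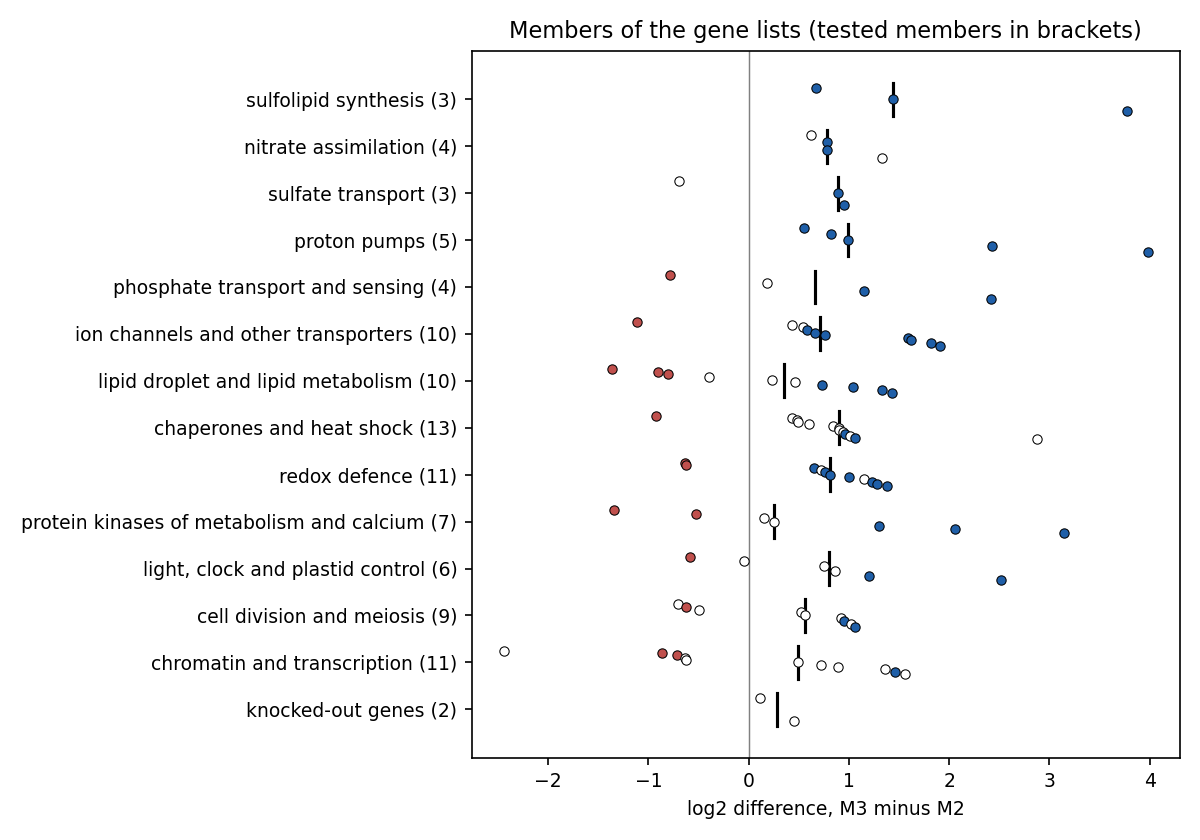
Log2 difference, M3 minus M2, of each tested member of the 14 lists. Points are genes, blue if higher in M3, red if lower and white if not passing limma's test, and black bars are list medians, from 0.25 for the kinases to 1.44 for sulfolipid synthesis, beside 0.01 for all tested genes.

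Lipid genes went in both directions. Of 10 tested, 4 were higher in M3 and 3 lower, with a median of 0.35. The lipid droplet surface protein gene NO11G02550 (LDSP, the main coat protein of oil droplets in this genus) was at 525, 528 and 626 in M2 and 1469, 1301 and 1448 in M3, a log2 difference of 1.33 (SE 0.09, adjusted p = 0.00220, limma). Some genes matching enzymes that cut lipids were higher: the PLC-like phosphodiesterase NO04G01100 (138 ± 28.8 and 369 ± 29.7), the triglyceride lipase NO18G01550 (147 ± 16.5 and 305 ± 46.3) and lipase 1, NO20G00510 (46.5 ± 3.26 and 78.0 ± 3.22). The lipase gene NO05G00120, at 3.09, 0 and 1.71 in M2 and 5.17, 0 and 3.74 in M3, did not pass (adjusted p = 0.750). Lower was NO16G00440, of the GNS1/SUR4 family of fatty acid elongases, at 35.5, 32.4 and 27.0 in M2 and 11.1, 10.7 and 13.1 in M3 (log2 difference -1.36, SE 0.15). The AMP-dependent synthetase and ligase gene NO12G02050 (15.4 ± 1.80 and 7.73 ± 0.980) and the sterol 4-alpha-methyl-oxidase gene NO04G02040, of sterol synthesis (56.4 ± 1.17 and 32.1 ± 6.52), were lower as well. The call of NO12G02050 ended without M2 replicate 2 or 3 or M3 replicate 2 (adjusted p = 0.0688 to 0.0888), and that of NO04G02040 without any library but M3 replicate 1 (0.0505 to 0.0855). The diacylglycerol acyltransferase match NO07G01500, of the family that makes storage oil, was at 48.2, 48.9 and 3.81 in M2 and 46.2, 39.6 and 8.95 in M3, and no difference could be seen through that spread (adjusted p = 0.911). The call of NO18G01550 ended without M2 replicate 2 (0.0520).

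Redox genes were mostly higher in M3, 7 of 11 against 2 lower, with a median of 0.81. The iron superoxide dismutase NO13G01830, which turns superoxide into hydrogen peroxide, was at 44.7, 56.7 and 46.2 in M2 and 138, 119 and 129 in M3, a log2 difference of 1.38 (SE 0.11, adjusted p = 0.00294, limma). Ascorbate peroxidases, which remove that peroxide, were higher as well: NO26G00430 was at 43.6 ± 6.61 and 107 ± 16.9, and the stromal NO10G02430 at 156 ± 14.2 and 266 ± 31.1. Dehydroascorbate reductase NO01G01360, which regenerates the ascorbate, was lower in M3, at 139, 136 and 122 in M2 and 90.8, 84.0 and 81.4 in M3. The other lower member, the thioredoxin-like gene NO08G02020, was at 9.91 ± 0.784 and 6.06 ± 0.755 (adjusted p = 0.0489), and its call ended without any library but M3 replicate 1 (0.1058 to 0.152) and with a pseudocount of 0.1 (0.0527). The alternative oxidase NO02G00290, a bypass of the respiratory chain, was at 159.9 ± 5.27 and 377 ± 48.4, and thioredoxin F2, NO02G01640, which activates plastid enzymes in the light, at 255 ± 29.4 and 444 ± 22.1. The glyoxalase II gene NO02G00280, next to the alternative oxidase gene, was at 195 ± 12.9 and 392 ± 40.3. The call of NO10G02430 ended without M3 replicate 2 (adjusted p = 0.0510).

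Of 13 chaperone genes, 2 were higher in M3, 1 lower and 10 did not pass, although the median was 0.90. The chaperonin 10 gene NO05G01850 (249 ± 40.3 and 484 ± 77.0) and the heat shock protein gene NO02G03090 (469 ± 102 and 986 ± 252) were higher, and the cyclophilin-40 gene NO07G03360, a cochaperone, was lower (49.5 ± 3.60 and 25.8 ± 3.97). The 2 listed genes matching heat shock protein 90 swung between libraries of 1 line. NO05G02550 was at 2.17, 712 and 1.98 in M3 and between 1.20 and 1.87 in M2, and NO03G01460 was at 127, 154 and 1828 in M3 and 78.2, 739 and 94.1 in M2. The calls of NO05G01850 and NO07G03360 ended without M2 replicate 1 or 2, the former also without M3 replicate 2 (adjusted p = 0.0536 to 0.0745), and that of NO02G03090 without any library but M3 replicate 1 (0.0571 to 0.126) and without the variance trend (0.0501).

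Among 7 kinase genes, 3 were higher in M3 and 2 lower, with log2 differences from -1.35 to 3.14. NO06G02770 (chromosome 6, 780723 to 784726), a match of SnRK1.3, an energy-sensing kinase, was at 13.8, 13.8 and 20.9 in M2 and 172, 148 and 126 in M3, 9.22-fold higher. Its log2 difference was 3.14 (SE 0.20, adjusted p = 0.00169, limma). Calcium-dependent kinases split: NO15G00050 was at 22.7, 24.6 and 22.1 in M2 and 119, 137 and 61.0 in M3, while NO27G00430 was at 320.3, 295 and 343 in M2 and 126, 116 and 133 in M3 (log2 difference -1.35, SE 0.08). The calcium-regulated kinase NO30G00580 was at 28.1 ± 3.03 and 70.7 ± 4.36. The other SNF1-related gene of the list, NO02G00600 (SNF1 kinase homolog 10), was lower in M3, at 33.0, 31.7 and 25.7 in M2 and 21.9, 19.3 and 20.2 in M3 (adjusted p = 0.0465), a call that ended without any library but M3 replicate 1 (0.0524 to 0.156), without the filter (0.0512) and in the fits of 15 and 12 libraries (0.0873 and 0.0740). The call of NO15G00050 ended without any 1 of the M2 libraries (adjusted p = 0.0506 to 0.0565). This gene was at 145, 124 and 39.0 in M1 and at 51.4, 166 and 194 in M4. Those spans of 1.87 and 1.89 log2 units within a line are nearly as large as its difference of 2.06.

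Of 6 tested genes of light, clock and plastid control, 2 were higher in M3 and 1 lower. NO01G04880 (chromosome 1, 1289986 to 1292497) was at 8.93, 11.4 and 11.1 in M2 and 68.9, 66.4 and 58.9 in M3. Its log2 difference was 2.52 (SE 0.13, adjusted p = 0.00109, limma). The study's gene list describes it as phototropin 2, a blue-light receptor, while the study's text calls it an aureochrome. The clock gene match NO02G04780 (circadian clock associated 1) was at 19.8, 18.4 and 23.3 in M2 and 39.8, 52.9 and 52.7 in M3. The light-harvesting gene NO09G00450 (photosystem I light harvesting complex gene 6) was lower in M3, at 7397, 7497 and 7497 against 4550.2, 4679.7 and 5723. Its call ended without any library but M3 replicate 3 (adjusted p = 0.0563 to 0.109) and in the fit of all 15 libraries (0.0859). Aureochromes are blue-light receptors of this algal lineage. Another aureochrome gene of the study's text, NO08G01840, was at 409.8, 398 and 424 in M2 and 369, 403 and 426 in M3. It differed by -0.04 (SE 0.07).

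Genes of cell division and of chromatin gave few calls. Of 9 tested division and meiosis genes, 2 were higher and 1 lower, among them the Aurora kinase match NO11G02310, of a family that acts on chromosomes in mitosis (20.4 ± 3.40 and 40.2 ± 3.45), and the cyclin family gene NO19G00890 (24.1 ± 2.05 and 15.2 ± 1.20). Of 11 chromatin and transcription genes, 1 was higher and 2 lower. The homeodomain-like gene NO09G02490 was at 71.8, 82.5 and 95.7 in M2 and 178, 245 and 279 in M3, and the enhancer of polycomb match NO17G00610, from a family found in histone acetyltransferase complexes, at 156, 149 and 154 in M2 and 93.1, 96.9 and 88.6 in M3. The latter had a log2 difference of -0.71 (SE 0.06, adjusted p = 0.00279, limma). The SET domain gene NO05G03230, of a family that methylates histones, was lower at a low level (3.18 ± 0.276 and 1.305 ± 0.329), and its call ended without any library but M3 replicate 1 (0.0999 to 0.147) and with a pseudocount of 0.1 (0.0663). Without M2 replicate 2 the calls of NO09G02490 (0.0501), NO11G02310 (0.0644; also without M3 replicate 2, 0.0555) and NO19G00890 ended, the last also without any library but M3 replicate 1 (0.0583 to 0.103).

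Other described genes, chosen after their values were seen, show the range of the comparison. Alanine:glyoxylate aminotransferase NO02G00100, an enzyme of the photorespiratory pathway, was at 26.3, 22.7 and 28.6 in M2 and 121, 107 and 85.4 in M3. Next to the magnesium transporter gene, NO21G01560, of the phytanoyl-CoA dioxygenase family, was at 3.14, 2.86 and 7.29 in M2 and 34.1, 38.1 and 51.1 in M3. Genes matching parts of G protein signalling did not move together: the alpha subunit match NO04G03580 was higher (8.03 ± 1.07 and 30.1 ± 2.35), the receptor match NO16G02230 was lower (74.0 ± 3.25 and 29.6 ± 2.18), and the beta subunit match NO04G04020 was at 2.45 ± 0.478 and 3.56 ± 0.873 and did not pass (adjusted p = 0.297, limma).

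Some neighbouring genes differed together. The DEG NO16G02290 ends 126 bases before NO16G02300 on the same strand, which was at 15.8, 10.3 and 22.3 in M2 and 213, 175 and 171 in M3. NO30G01270 (6.58 ± 0.980 and 38.0 ± 9.996) and NO30G01280 (1.37 ± 0.204 and 8.42 ± 1.64), on 1 strand of chromosome 30 and 55 bases apart, were both higher in M3. NO04G04200 and NO04G04210, both described as NAD(P)-binding Rossmann-fold proteins, lie head to head on chromosome 4 with 367 bases between their starts, and were at 37.3 ± 4.39 and 94.0 ± 11.6 and at 98.7 ± 8.19 and 261 ± 16.3. Across the nuclear chromosomes, the share of tested genes that passed ran from 10.97% on chromosome 24 to 20.2% on chromosome 17. The longest runs of neighbouring tested genes that passed in 1 direction had 4 genes: NO13G01630 to NO13G01660, higher in M3, and NO12G03280 to NO12G03310 and NO19G02060 to NO19G02090, lower. No 2 neighbouring tested genes were both DEGs.

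A stretch at the start of chromosome 18, chosen after its values were seen, was higher in M3 at low levels. It holds 30 genes, from NO18G00010 to NO18G00300 (positions 546 to 116782), of which 18 were tested. Of these 18, 10 had a mean under 1 in M2 and reached the filter only through M3, so their sign was set by it. The other 8, with a mean of 1 or more in M2, had differences from 0.95 to 1.98, and all 8 passed, against 1 of the 10. Of the 12 genes not tested, 9 had a higher mean in M3, 1 (NO18G00260) a lower one and 2 were listed at 0 in both lines. NO18G00250 was at 24.0, 25.3 and 25.4 in M2 and 122, 125 and 68.1 in M3, and NO18G00300, of glycosyl hydrolase family 85, at 6.58, 5.91 and 6.54 in M2 and 30.4, 27.9 and 23.5 in M3. NO18G00300 overlaps its neighbour NO18G00290. These 2 genes were unlike in the other lines. NO18G00250 had means of 84.1 in M1 and 137 in M4, so M2 was lowest. NO18G00300 had means of 4.25 in M1 and 6.34 in M4, so M3 was highest. The next gene, NO18G00310, was at 169, 170.1 and 189 in M2 and 193, 183 and 177 in M3. Over the 20 tested genes that follow the stretch, the median difference was 0.12 and 2 passed. Since the stretch was picked for these values and its neighbours are not independent, no test is given. Between M4 and M1, which were not used to pick it here, its genes, of which 21 were tested, had a median difference of 0.38 and none passed limma's test.

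**Figure D4:**
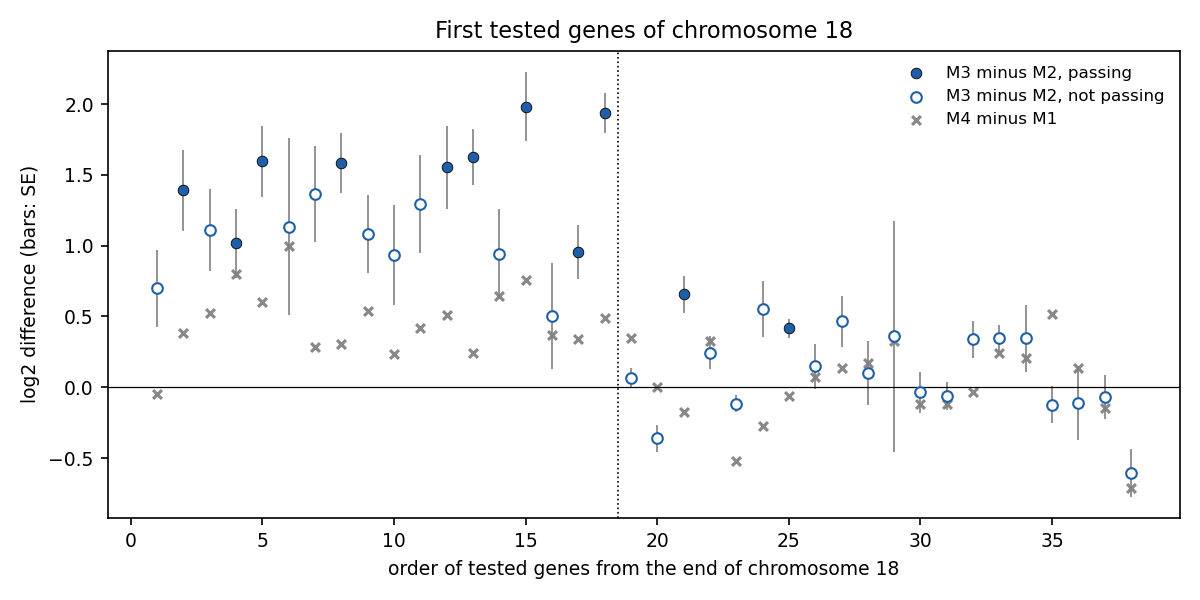
Log2 difference of the first tested genes of chromosome 18 in gene order, M3 minus M2 (circles with SE bars, filled if passing limma's test) and M4 minus M1 (crosses). The dotted line marks the end of NO18G00300: of the 18 genes before it, the 8 with a mean of 1 or more in M2 lie between 0.95 and 1.98, and the other 10 were tested only through their level in M3.

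Organelle genes had low levels, since organelle transcripts made up 0.0271% to 0.0318% of the values in M2 and 0.0352% to 0.0421% in M3. This share did not overlap between the lines, and its part in the results below was not tested. Of 85 tested organelle genes, 7 passed (8.24%, against 15.0% of all tested genes and 8.97% of the 2352 genes of lowest level), all of the chloroplast, 6 higher in M3 and 1 lower. Photosystem genes gave 3 calls of 17 tested, a share near that of all genes, with a median of 0.53: cp-psbA, which encodes the D1 protein of photosystem II, was at 59.5, 53.2 and 51.4 in M2 and 109, 106 and 102 in M3 (log2 difference 0.94, SE 0.08, adjusted p = 0.00294, limma), and cp-psaA (1.11 ± 0.331 and 3.33 ± 0.584) and cp-psbC (2.50 ± 0.555 and 5.24 ± 0.566) were higher at low levels. The cytochrome gene cp-petJ-2 (1 of 5 in its set), the ATP synthase gene cp-atpG (1 of 6) and the chaperone gene cp-dnaK were higher too, and the elongation factor gene cp-tufA was lower, at 15.4 ± 1.17 in M2 and 8.67 ± 1.02 in M3. With a mean of 0.533 in M2, cp-petJ-2 reached the filter only through M3 (3.07), which set its sign. Means of tested photosystem genes went down to 0.186 in M2 and 0.839 in M3, so the filter set the sign of some of them. None of 15 genes of chloroplast ribosomal proteins, 2 of Rubisco, 2 of chlorophyll synthesis, 1 of the RNA polymerase and 30 of the mitochondrion passed limma's test. Of these 7, only the call of cp-psbA held without each library in turn: those of cp-psaA, cp-psbC and cp-atpG ended without any 1 library (adjusted p = 0.0592 to 0.138) and with a pseudocount of 0.1 (0.0509 to 0.0616), those of cp-psbC and cp-atpG also with StringTie TPM (0.0612 and 0.0580), and that of cp-atpG in the fits of 15 and 12 libraries (0.0785 and 0.0667), those of cp-petJ-2 and cp-tufA without any but M3 replicate 1 (0.0539 to 0.0870), and that of cp-dnaK without any M2 library or M3 replicate 2 (0.0510 to 0.0606).

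The second pair of clones shows which differences recur with the same pair of knocked-out genes. M4 and M1 share no library with M3 and M2. Of 9448 genes tested between M4 and M1, 619 passed (6.55%), 289 higher in M4 (3.06%) and 330 lower (3.49%), and 7 were DEGs (0.0741%). The 619 fell to 37 without M4 replicate 1, to 40 without M4 replicate 2 or 3, to 48 without M1 replicate 2, to 129 without M1 replicate 3 and to 412 without M1 replicate 1. Of the 1409 genes that passed between M3 and M2, 170 also passed between M4 and M1 in the same direction, which is 12.1% of the first list and 27.5% of the second, and 14 passed in the opposite direction. The shared count depended on the model: it was 607 in the fit of all 15 libraries, 511 in that of 12, 91 without the variance trend and 2 with the replicate number as a block. Of the 244 genes that differed by more than 2-fold and were tested in both pairs, 82.0% had the same sign between M4 and M1, against 60.6% of all 9353 genes tested in both. Of these 244, 43 passed there, 41 of them in the same direction. Tested directly, 421 genes differed between the 2 pairs in their difference (4.46% of 9448), and 76 of the 244 were among them. Since the 244 were chosen for their size between M3 and M2, the last count is a description. By list, no tested member passed between M4 and M1 among 3 sulfolipid genes (median 0.64) and 5 proton pumps (0.63). The same held for 3 sulfate or sulfite genes (0.09) and 4 phosphate genes (0.18). Of 4 nitrate assimilation genes 1 was higher in M4 (1.11), and of 10 other ion transport genes 4 (0.80). Of 11 redox genes 2 were higher and 1 lower (0.32). Of 10 lipid and 7 kinase genes 1 each was higher (0.01 and 0.40).

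Genes that passed in both pairs in the same direction included some of those above. NO01G04880, described as phototropin 2 and as an aureochrome, was at 57.5, 39.0 and 28.1 in M1 and 149.5, 148 and 163 in M4. Its log2 difference was 1.92 beside 2.52 between M3 and M2 (difference of the 2, adjusted p = 0.260, limma). LDSP gene NO11G02550 was at 1217, 1119 and 879 in M1 and 1635, 1819 and 1979 in M4, a difference of 0.77. The magnesium transporter match NO21G01570, the aquaporin match NO20G01770 and the potassium channel match NO10G02530 were higher in M4 than in M1 as well, by 1.14, 1.72 and 1.01. NO30G01270 and NO30G01280 were higher by 1.98 and 1.54. In all of these genes but NO20G01770, every M1 library lay above every M2 library, although both lines carry the same knocked-out gene. The following 3 undescribed genes, chosen after their values were seen, stood out in both pairs. NO11G01980 was at 451, 483 and 523 in M2 and 100.3, 103 and 126 in M3, and at 175, 211 and 175 in M1 and 57.5, 69.9 and 67.8 in M4. NO18G02490 was at 31.5, 33.2 and 37.2 in M2 and 12.4, 11.99 and 10.5 in M3, and at 113, 116 and 128 in M1 and 13.3, 14.1 and 15.1 in M4. NO06G00010, at the start of chromosome 6, was at 0.418, 0.522 and 0.270 in M2 and 25.1, 18.7 and 6.73 in M3, and at 16.7, 7.70 and 2.31 in M1 and 99.7, 68.5 and 62.4 in M4. Its M2 mean of 0.403 was so low that it reached the filter only through M3, which set its sign between those lines. In each of these 3 genes both NO06G02500 knockout lines lay on the same side of their partner, but M1 and M2, with the same knocked-out gene, differed as well.

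Genes picked for a large difference between M3 and M2 tend by that choice to show a smaller one elsewhere, so the values between M4 and M1 are given for them as a description. Of the 11 DEGs, 1 (NO13G03170) passed between M4 and M1, 9 had the same sign there, and 7 differed between the pairs in their difference. NO24G00190, the phosphate transporter match, was at 575, 447 and 465 in M1 and 613, 607 and 577 in M4, a difference of 0.28 (adjusted p = 0.164) beside 2.42 between M3 and M2. NO06G02770 was at 160.3, 111 and 79.6 in M1 and 264, 293 and 192 in M4, and NO17G00440 at 259, 155 and 120.3 in M1 and 326, 363 and 419 in M4. In each of these 3 genes every M1 library lay above every M2 library. Lysine breakdown gene NO22G00640 was at 90.6, 89.2 and 84.0 in M1 and 84.0, 77.3 and 72.8 in M4, below the M2 and above the M3 libraries.

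A few genes had opposite differences in the 2 pairs. NO10G00370 (chromosome 10, 130548 to 135092), described as 5-formyltetrahydrofolate cycloligase, an enzyme of one-carbon metabolism, was at 95.5, 76.4 and 102 in M2 and 49.6, 36.3 and 30.9 in M3, but at 258, 184 and 114 in M1 and 488, 511 and 489 in M4. Its log2 difference was -1.22 between M3 and M2 (SE 0.20, adjusted p = 0.0169, limma) and 1.49 between M4 and M1 (adjusted p = 0.0432). NO10G00380 on the other strand, which overlaps it by 182 bases, was at 158 ± 11.7 in M2 and 48.3 ± 13.7 in M3, and higher in M4 than in M1 by 1.46. M3 was lowest and M4 highest of the 4 lines in both genes, although both carry a knockout of NO06G02500. The methionine sulfoxide reductase match NO21G00950, which repairs oxidized methionine, was higher in M3 than in M2 (133 ± 2.86 and 212 ± 35.3) and lower in M4 than in M1 (log2 difference -0.86, adjusted p = 0.0458). Medians of 13 chaperone genes had opposite signs, -0.47 between M4 and M1 and 0.90 between M3 and M2, where 10 did not pass. In M4 none was higher than in M1 and 5 were lower, and 6 differed between the pairs. Of the 5, NO07G03360 was lower in both pairs (M4 minus M1 -0.47, adjusted p = 0.0494, limma). Another of the 5, the co-chaperone GrpE gene NO19G01420, was at 341 ± 44.1 in M2 and 481 ± 82.6 in M3 and did not pass there (adjusted p = 0.0915), while M4 minus M1 was -0.95 (adjusted p = 0.0153, limma). The call of NO10G00370 ended without M2 replicate 1 or 3 or M3 replicate 2 (0.0618 to 0.0664), and that of NO21G00950 without any M2 library or M3 replicate 2 (0.0721 to 0.0902).

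**Figure D5:**
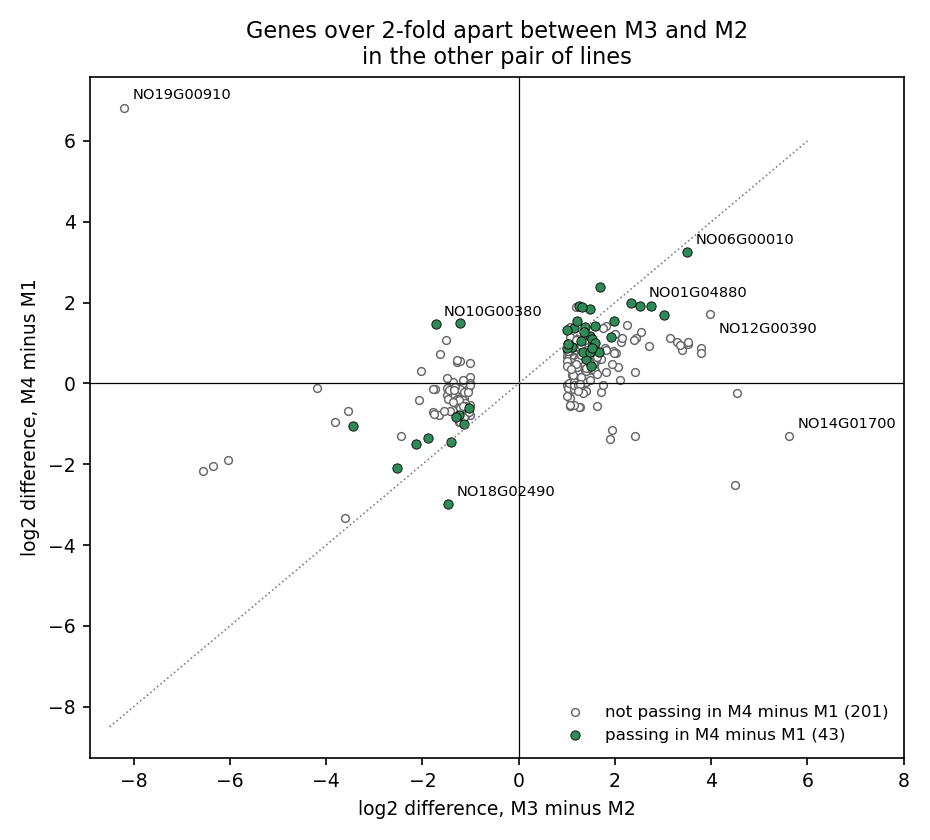
Log2 difference of M4 minus M1 against that of M3 minus M2, for the 244 genes that passed limma's test between M3 and M2 with more than 2-fold and were tested in both pairs. Filled points (43) passed between M4 and M1, and 82.0% of all points have the same sign in both pairs (the dotted line marks equal differences). The genes were chosen by the horizontal axis, so smaller values on the vertical axis follow in part from that choice.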

How the data were processed

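RNA of 6 libraries of *N. oceanica* (3 of M2, 3 of M3), and of 6 more of M1 and M4, was analysed. Per the study's methods, reads were aligned with STAR, and a TMM-normalized expression matrix was made with Trinity and RSEM2. The authors deposited, for each library, coverage, FPKM and TPM per gene in the format of StringTie's gene abundance table, and for the series a matrix of TMM-normalized TPM, which was read as a signal because it is rescaled from TPM. Within a library the matrix is the deposited TPM times 1 factor. No counts were used, so the authors' edgeR test was replaced by limma, and absolute depth is unknown: coverage over FPKM gives relative depth only.

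Genes whose mean in the 6 libraries was 1 or more were tested on log2(value + 1) with limma 3.58.1 (R 4.3.3, trended variance, Benjamini-Hochberg adjustment). Changes of genes at low level are understated on the log2(value + 1) scale. A gene with a mean under 1 in 1 line reached the filter only through the other line, which sets the sign of its difference. Examples are NO14G01700 and NO16G03130, tested through M3, and NO06G02680, NO16G00720 and NO13G03110, tested through M2. "Higher" and "lower" mean an adjusted p under 0.05, and differentially expressed genes (DEGs) an adjusted p of 0.001 or less and more than 2-fold. M4 minus M1 was fitted on its own 6 libraries, and the difference of both contrasts in 12. On simulated data with 9405 genes for M3 minus M2, 80% of genes changed by 1.5 log2 units and 96% of those changed by 3 passed, with 12 false calls. At the DEG threshold 46% and 82% were found. Noise was drawn independently for each gene, and only genes of middle level were changed. Shifts that many genes of a library share were not simulated, so the false calls are no measure of those in the real data.

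The members and lists were chosen with earlier results of these data known. The rule for named genes took the knocked-out genes, genes the study's text names on these data, list members, DEGs with no overlap of the lines (in each direction the 6 largest described and the 4 largest others whose higher line has a mean of at least 10), genes listed at 0 in 1 line, and organelle sets. The neighbouring pairs, the start of chromosome 18, cp-dnaK, cp-tufA, NO02G00100, NO21G01560, NO04G03580, NO04G04020, NO16G02230, NO11G01980, NO18G02490 and NO06G00010 were chosen after their values were seen. Same-numbered libraries did not deviate together (r of -0.05, -0.01 and 0.00 for M2 with M3), so the numbers were not used as pairs. Alternatives covered the pseudocount, filter, scaling, model, replicate block and each library left out. Descriptions are those of the study's gene list.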

Additional observations from a re-analysis of the deposited data

Results flagged for a closer look

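The difference between M3 and M2 was not the same as that between M4 and M1 in 36 of 105 named genes, by the test of the difference of both contrasts in 1 limma fit of 12 libraries (adjusted p under 0.05), which 4.46% of all 9448 tested genes passed. Many named genes were taken for a large difference between M3 and M2, which favours such a result, so the count is a description. Values are log2 differences, (M3 minus M2) minus (M4 minus M1). Values above 0 were found for NO16G02290 (2.39), NO16G00950 (2.56), NO04G01800 (2.55), NO12G00390 (2.27), NO15G02830 (2.90), NO05G03760 (0.78), NO24G00190 (2.14), NO10G02520 (1.00), NO21G01570 (0.77), NO18G01550 (1.02), NO05G01850 (1.23), NO02G03090 (1.63), NO26G00430 (1.302), NO02G00290 (0.79), NO02G00280 (1.04), NO06G02770 (2.02), NO16G02300 (2.49), NO04G04200 (1.27), NO04G04210 (1.36), NO02G00100 (1.16) and NO18G00300 (1.45). Values below 0 were found for NO13G03170 (-2.37), NO22G00640 (-1.27), NO09G03470 (-1.78), NO20G01770 (-0.96), NO16G00440 (-1.39), NO27G00430 (-1.19), NO22G00660 (-0.93) and NO16G02230 (-0.88).

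For the overlapping neighbours NO10G00370 (-2.71) and NO10G00380 (-3.19) the contrasts had opposite signs and each passed its own test, as in NO21G00950 (1.52). In NO19G01420 (1.43) and NO04G04020 (-1.31) the M4 and M1 contrast passed and the M3 and M2 contrast did not. In NO18G02490 (1.52) both passed, with the larger fall between M1 and M4. The value of NO19G00910 (-15.02) rests on libraries listed at 0 and is no measure of size.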

How the results depend on the processing

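The count of genes passing between M3 and M2 (1409) stayed within 1.5 times under every alternative but the replicate block (484) and leaving out a library (337 to 2049). The 11 DEGs became 6 with a pseudocount of 0.1, 19 with quantile normalization, 127 in the fit of all 15 libraries, 85 in that of 12, 128 with an adjusted p of at most 0.01, 0 with the replicate block and 0 to 7 without 1 library. For M4 minus M1, the 7 DEGs became 4 with a filter of 10, 25 with 15 libraries, 3 with 12, 15 at 0.01, 0 with the replicate block and 0 to 7 without 1 library. Its 619 genes passing became 1636 with 15 libraries, 1394 with 12, 335 without the trend, 6 with the replicate block and 37 to 412 without 1 library. The 421 genes that differed between the contrasts became 241 with the replicate block and 100 to 1129 without 1 library. The 170 shared genes, a count whose alternatives were chosen after seeing the data, became 607 with 15 libraries, 511 with 12, 91 without the trend and 2 with the replicate block. The causes were not tested. Same-numbered libraries share only a number, so the block removes degrees of freedom without a known pairing.

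Of 90 named genes that passed, 59 passed in every alternative that could be run for them: 55 in all 18 settings, and 4 that a filter of 10 or the removal of organelle genes took out of the test. The difference of NO18G00310 reversed with StringTie TPM (-0.0124), at nearly the same scaling without organelle genes (-0.0123), and with quantile normalization (-0.0293). Without 1 library, NO07G01500 ran from -0.89 to 0.94, with -0.18 without M3 replicate 1 and -0.07 without M3 replicate 2, NO03G01460 from -0.33 to 1.93, NO05G00120 from -0.11 to 1.28 (-0.03 without M3 replicate 1) and NO08G01840 from -0.0907 to 0.0118, none of which passed. Absolute depth is unknown, so no counting error is given.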

Other observations

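The share of tested genes that passed between M3 and M2 rose with the mean level, from 8.97% in the lowest of 4 equal bins of tested genes to 23.6% in the highest. Of genes that overlap another gene, 12.7% passed, and of the rest 15.5%.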
